A study of Mus musculus with 6 samples.

Results

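Ankrd9, Tmem52 and Ntng2 are 3 protein-coding genes with few descriptions in muscle, and they are 3 of the 24411 genes counted in a fast-twitch muscle of the hindlimb, the extensor digitorum longus (EDL), of mice with Akt1 and Akt2 deleted in skeletal muscle. They were chosen by symbol because their counts were lower in the knockout, with a small spread within each genotype and a gap between the genotypes. The choice had no numeric threshold. The comparison of the genotypes for these 3 genes is therefore a description, and no test of it is given.

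RNA was sequenced from EDL of C57BL/6J mice at 50 weeks of age. The 3 mAktDKO mice carried floxed Akt1 and Akt2 alleles together with Mlc1f-Cre, a Cre recombinase knocked in downstream of the promoter of a myosin light chain, and the 3 control mice carried the same floxed alleles without Cre. The paper describes this promoter as active mainly in fast-twitch fibres and little in satellite cells. Each library was 1 mouse, and the control mice are numbered 2 to 4 in the count table.

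Akt1 and Akt2 are protein kinases that carry the insulin signal from the cell surface to glucose uptake, protein synthesis and the control of FoxO transcription factors. Ankrd9 encodes an ankyrin repeat protein that serves as a substrate adaptor of elongin-cullin ubiquitin ligases, and IMP dehydrogenase (IMPDH), the rate-limiting enzyme of guanine nucleotide synthesis, is its best described substrate. Ntng2 encodes netrin-G2, a lipid-anchored relative of the netrins that is known from neurons, where it binds the ligand encoded by Lrrc4 across the synapse. Tmem52 encodes a transmembrane protein whose function has hardly been described.

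In the GENCODE annotation of mm10, Ankrd9 (ENSMUSG00000037904.14) lies on the minus strand at chr12:110975353-110979040 with 7 annotated transcripts. Its end lies 1674781 bp from the start of Akt1, so the gene is on the same chromosome as a floxed allele that both groups carry. Tmem52 (ENSMUSG00000023153.9) lies on the plus strand at chr4:155469114-155470858 with 5 transcripts. Ntng2 (ENSMUSG00000035513.19) lies on the minus strand at chr2:29194541-29253005 with 11 transcripts.

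The genes differ in size. Tmem52 spans 1745 bp, which puts it at percentile 1.97 of the 12436 tested genes with an annotation, and Ankrd9 spans 3688 bp, at percentile 6.88. Ntng2 spans 58465 bp, at percentile 74.0, although its exons cover 3990 bp when merged, against 3160 bp in Ankrd9 and 1157 bp in Tmem52. Ntng2 overlaps the long noncoding RNA 6530402F18Rik on the same strand, and its deposited counts are fractional because reads that fit both genes were divided between them. No annotated gene overlaps Ankrd9 or Tmem52.

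The stretch before the start of Ankrd9 is shown. Of the windows found for the 3 genes, only this one has bases outside annotated exons and outside its own gene in RefSeq. RefSeq promoter windows of GRCm38 (mm10) were found for 2 of the 3 genes, Ankrd9 and Ntng2, but not for Tmem52. The 208 bases below lie at chr12:110979083-110979290, read 5′ to 3′ along the minus strand, and end 43 bases before the start at 110979040. Capitals mark matches to GGGCGG (the GC box), TGACG (a cyclic AMP response half-site) and CCAAT, each searched on both strands.
Ankrd9: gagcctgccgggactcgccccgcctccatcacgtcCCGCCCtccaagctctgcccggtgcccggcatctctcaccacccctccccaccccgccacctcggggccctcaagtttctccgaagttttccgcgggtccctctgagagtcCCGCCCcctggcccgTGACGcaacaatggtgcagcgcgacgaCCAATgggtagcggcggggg

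The capitals fall at -215 and -104 for the GC box, which reads as its reverse complement here, at -89 for TGACG and at -62 for CCAAT, counted from the start to the first base of the match. A further CCAAT at -29 lies inside the gene as RefSeq annotates it, which reaches further upstream than in GENCODE, and is not shown. Of 32851 windows of 250 bases, 32.7% hold a GC box, 17.8% hold TGACG and 33.8% hold CCAAT. The Ankrd9 window has 72.8% G and C, at percentile 94.0 of all windows, whose median is 52.4%. It holds no match to GTAAACA, the FoxO core, which occurs in 3.17% of windows, nor to the MEF2 site, which occurs in 2.92%.

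The window before an Ntng2 start at 29248099 on the minus strand is of another kind. This start lies inside the gene, whose 5′ end in GENCODE is at 29253005, and inside 6530402F18Rik at 29245116-29252993. The window has 52.4% G and C, at percentile 49.7. It holds 3 matches to CANNTG, the E-box letters, at -120, -40 and -12, and 1 to CCAAT at -95. E-box letters occur in 66.2% of windows. GTAAACA, the MEF2 site, TGACG and the GC box were not found there, so CCAAT is the one motif of the 10 searched that this window shares with the Ankrd9 window above. A further Ankrd9 window, before the start at 110978618, holds no CCAAT, 1 match to TGACG at -65, 2 to the GC box and 1 to the E-box letters. This window lies inside the annotated gene, and its bases are not shown.

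Total estimated counts lay between 13738795 and 15445523 per mouse, and 3 counts, taken as the smallest level the depth can show, correspond to 0.180 to 0.227 CPM (counts scaled to a common library total, here corrected by the TMM method). Of the targeted genes, Akt2 was at 172, 133 and 143 CPM in control and at 51.3, 49.1 and 52.7 CPM in mAktDKO mice, with a log2 fold change of -1.55 (SE 0.11, adjusted p = 0.000923, edgeR). The log2 fold change of Akt1 was -0.25 (SE 0.08, adjusted p = 0.114, edgeR), and the counts are not given by exon. In younger mAktDKO mice the paper reports lowered Akt protein in skeletal muscle, shown by western blot. The value of Akt1 was -0.11 when scaled by library totals and -0.04 when scaled by the counts of 12 myofibre markers. Control mouse 2 stood apart, with a chi-square per degree of freedom of 25.4 and 26.2 against the other control mice, which differed from each other by 10.2, and values without it are given beside the 3 genes and beside a number of other results. Without it the log2 fold change of Akt2 was -1.43.

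Ankrd9, the ligase adaptor, had 79.8, 74.1 and 78.0 CPM in control mice 2, 3 and 4, and 44.8, 36.0 and 46.0 CPM in mAktDKO mice 1, 2 and 3. The groups did not overlap, and the lowest control mouse lay 28.0 CPM, or 1.61-fold, above the highest mAktDKO mouse. The mean was 77.3 ± 2.94 CPM (SD, n = 3) in control and 42.3 ± 5.45 CPM (SD, n = 3) in mAktDKO mice, 45.3% lower, and the fitted log2 fold change was -0.87 (SE 0.10). mAktDKO mouse 2 was the lowest of the 6, and without it the log2 fold change was -0.77.

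Tmem52, the transmembrane protein gene, had 47.3, 49.8 and 45.6 CPM in the control mice and 29.7, 29.5 and 27.4 CPM in the mAktDKO mice. Here the mice of each genotype lay close together, and the gap between the groups was 15.9 CPM, or 1.53-fold. The mean was 47.6 ± 2.09 CPM (SD, n = 3) in control and 28.9 ± 1.26 CPM (SD, n = 3) in mAktDKO mice, 39.3% lower, with a log2 fold change of -0.72 (SE 0.08).

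Ntng2, which encodes netrin-G2, had 12.2, 14.0 and 12.7 CPM in the control mice and 6.57, 6.51 and 7.09 CPM in the mAktDKO mice. Its level was the lowest of the 3 genes, its gap in fold was the widest at 1.72, and the groups did not overlap. The mean was 13.0 ± 0.91 CPM (SD, n = 3) in control and 6.72 ± 0.32 CPM (SD, n = 3) in mAktDKO mice, 48.1% lower, with a log2 fold change of -0.94 (SE 0.11). All 3 genes were thus lower without overlap, as their choice required, and 16.6% of the 12892 tested genes were lower without overlap in the same mice.

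**Figure D1:**
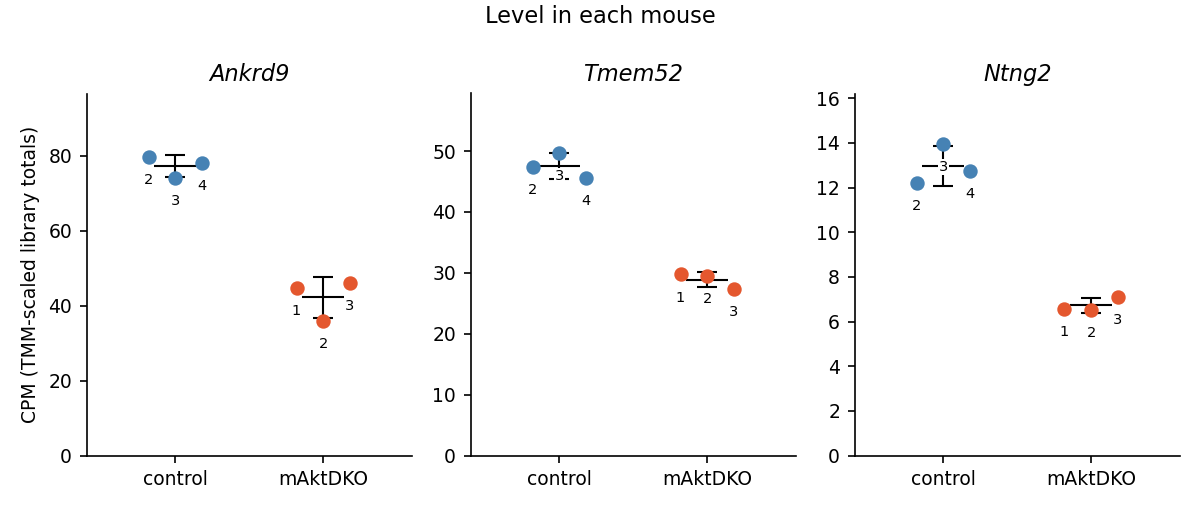
Level of Ankrd9, Tmem52 and Ntng2 in each mouse, in CPM with TMM-scaled library totals on a linear axis from 0 that differs between panels. Points are mice with their number in the count table, and the bars give the mean and SD of 3 mice per group. In each panel the 3 mAktDKO mice lie below the 3 control mice, with a gap of 28.0, 15.9 and 5.10 CPM.

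The spread between mice was compared with the spread that counting alone gives. For Tmem52 the coefficient of variation was 4.40% in control and 4.38% in mAktDKO mice, and a Poisson count of that size gives 3.91% and 4.70%. For Ntng2 it was 6.99% and 4.76%, against 7.49% and 9.75% from counting. A small spread was among the grounds for choosing these genes, so these values are a description. Ankrd9 had 3.80% in control mice, where counting gives 3.07%, and 12.9% in mAktDKO mice, where counting gives 3.89%.

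Levels of different genes were compared per kilobase of merged exons. On this scale Tmem52 had the highest level, with 41.1 ± 1.81 CPM per kb (SD, n = 3) in control and 25.0 ± 1.09 in mAktDKO mice. Ankrd9 followed with 24.5 ± 0.93 and 13.4 ± 1.73 CPM per kb, and Ntng2 was lowest with 3.25 ± 0.23 and 1.69 ± 0.08 CPM per kb. Among the annotated tested genes, these control levels lie at percentile 94.9 for Tmem52, 91.3 for Ankrd9 and 51.5 for Ntng2. Tmem52 and Ankrd9 are therefore abundant transcripts of this muscle for their length, while Ntng2 is near the middle. The order of the 3 levels is the same in both genotypes, and neighbouring genes in it are further apart than their SDs.

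Among all tested genes, ordered from the lowest log2 fold change, Ntng2 was at place 70, Ankrd9 at place 82 and Tmem52 at place 159 of 12892. Ordered by the gap in fold among the 2138 genes that were lower without overlap, Ntng2 was at place 18, Ankrd9 at place 26 and Tmem52 at place 34. All 3 stand higher by the gap than by the fold change, as follows from how they were chosen.

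**Figure D2:**
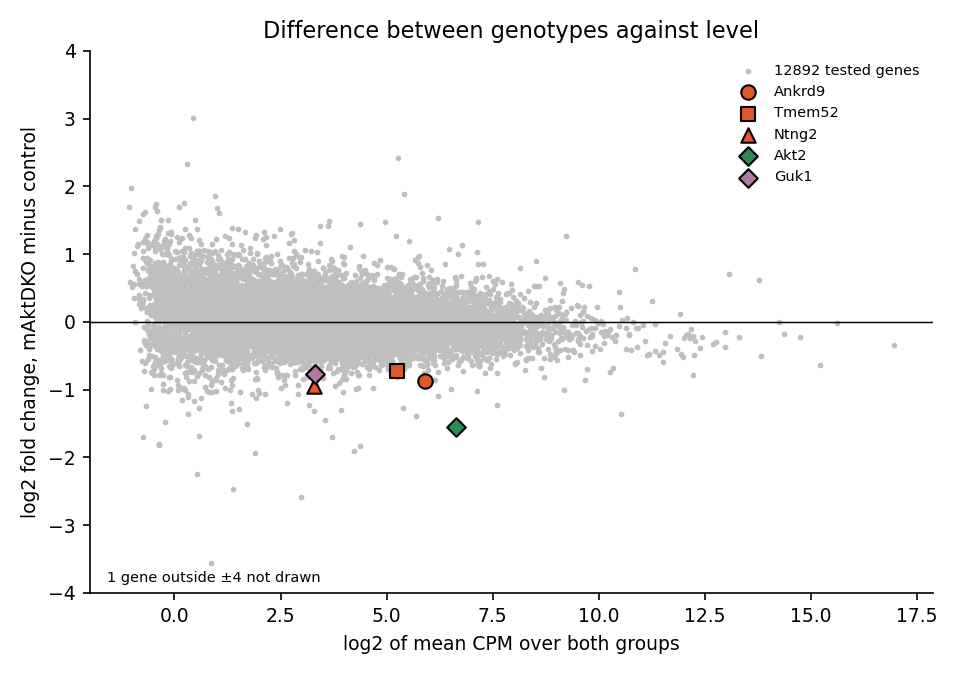
Fitted log2 fold change (mAktDKO minus control) against the log2 of the mean CPM over both groups for the 12892 tested genes in grey, with 1 gene outside the drawn range. Ankrd9 (circle), Tmem52 (square) and Ntng2 (triangle) lie at -0.87, -0.72 and -0.94, between the main body of genes and Akt2 at -1.55, and Guk1 lies at -0.77.

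The proportions among the 3 genes were then examined in each mouse. The ratio of Ankrd9 to Ntng2 counts was 6.54, 5.30 and 6.12 in the control mice and 6.82, 5.53 and 6.49 in the mAktDKO mice. The groups overlap, with means of 5.99 ± 0.63 and 6.28 ± 0.67 (SD, n = 3 each). The ratio of Ankrd9 to Tmem52 counts overlapped as well, with 1.63 ± 0.12 in control and 1.47 ± 0.23 in mAktDKO mice. The ratio of Tmem52 to Ntng2 counts was 3.88, 3.56 and 3.58 in the control mice and 4.53, 4.53 and 3.87 in the mAktDKO mice, so that only mAktDKO mouse 3 fell among the control values.

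Because a whole muscle was sequenced, fewer cells of a type and less RNA per cell cannot be told apart. The summed level of 12 myofibre markers, among them Acta1, Ckm and Myh4, was 161700 to 172500 CPM in control and 139200 to 154800 CPM in mAktDKO mice. Of these, 12 of 12 had a log2 fold change below 0 with a median of -0.22. Under library totals 10 of 12 were below 0 with a median of -0.09. None of the 12 passed an adjusted p of 0.01 in edgeR's test (0.0233% of all tested genes did), while 5 had an unadjusted p under 0.05, beside 24.5% of all genes. In DESeq2, where 3.46% of all genes passed, 4 passed, Myh1 (adjusted p = 1.92e-06), Tnni2 (0.000122), Myl1 (0.00388) and Pvalb (0.00926), all lower and named after their values were seen. Myl1 encodes Mlc1f, the light chain at whose promoter Cre was knocked in, and only the mAktDKO mice carry Cre. For Myl1 the knock-in and the loss of Akt therefore cannot be told apart. For each 1000000 myofibre marker counts, Ankrd9 had 463, 433 and 483 counts in control and 309, 259 and 297 counts in mAktDKO mice, 62.8% of control. On the same scale Tmem52 was at 70.1% and Ntng2 at 59.7% of control, and for each gene the groups still did not overlap.

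Markers of other cells lay for the most part on the other side of 0. Of 6 fibro-adipogenic progenitor markers 5 had a log2 fold change above 0, with a summed level of 7300 to 16500 CPM in control and 16160 to 20540 CPM in mAktDKO mice. Col1a1 made up 80.8% to 92.0% of this sum, and the lowest control value was that of control mouse 2, without which the control sums were 13770 and 16500 CPM and the median log2 fold change was 0.27 in place of 0.53. The 5 of 5 tendon cell markers with a log2 fold change above 0 summed to 625 to 824 and 851 to 1279 CPM. Of 8 Schwann cell markers 7 were above 0, with sums of 380 to 458 and 434 to 571 CPM, and this is the list closest to the nerve tissue from which Ntng2 is known. All 6 macrophage markers (62.4 to 103 and 94.6 to 118 CPM) and all 5 adipocyte markers (128 to 156 and 150 to 232 CPM) had a log2 fold change above 0. The lowest macrophage sum was that of control mouse 2, and without it the control sums were 94.3 and 103 CPM and 5 of 6 markers were above 0. The summed levels of the groups overlapped for the progenitor, Schwann cell, macrophage and adipocyte lists and did not overlap for the tendon list. Of 6 genes known to rise when muscle loses its nerve 5 were above 0, with sums of 60.4 to 70.3 and 81.3 to 95.8 CPM. In slow fibre markers 5 of 6 were above 0, with overlapping sums of 363 to 581 and 426 to 915 CPM and a median log2 fold change of 0.46 that was 0.31 without control mouse 2, and in endothelial, satellite and mural cell markers 4 of 6, 5 of 5 and 4 of 5 were above 0, and without control mouse 2 these counts were 6 of 6, 4 of 5 and 2 of 5. No marker of these lists had a count of 0 in all mice, and none passed an adjusted p of 0.01 in edgeR's test. In DESeq2, with the same 3.46% of all genes passing in either direction, 4 passed and were higher in mAktDKO mice, namely Dcn of the progenitor list (adjusted p = 0.000322), Tnmd (0.00384) and Fmod (0.00663) of the tendon list, and Myog (0.00353) of the nerve-loss list, all named after their values were seen. The part of these cells in the levels of Ankrd9, Tmem52 and Ntng2 was not tested.

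The scaling of the libraries moved the size of the difference but not its direction. Scaled by library totals alone, the median of all genes rose by 0.14 on the log2 scale, and the log2 fold changes were -0.74 for Ankrd9, -0.58 for Tmem52 and -0.81 for Ntng2. Scaled by myofibre marker counts, the median rose by 0.21 and the values were -0.67, -0.51 and -0.74. A change of library size adds nearly the same amount to every gene, so the values relative to the median of all genes, -0.89, -0.73 and -0.96 under this scaling against -0.89, -0.74 and -0.96 under TMM, are alike by construction. Without control mouse 2 the fitted values were -0.85 for Ankrd9, -0.72 for Tmem52 and -0.99 for Ntng2.

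**Figure D3:**
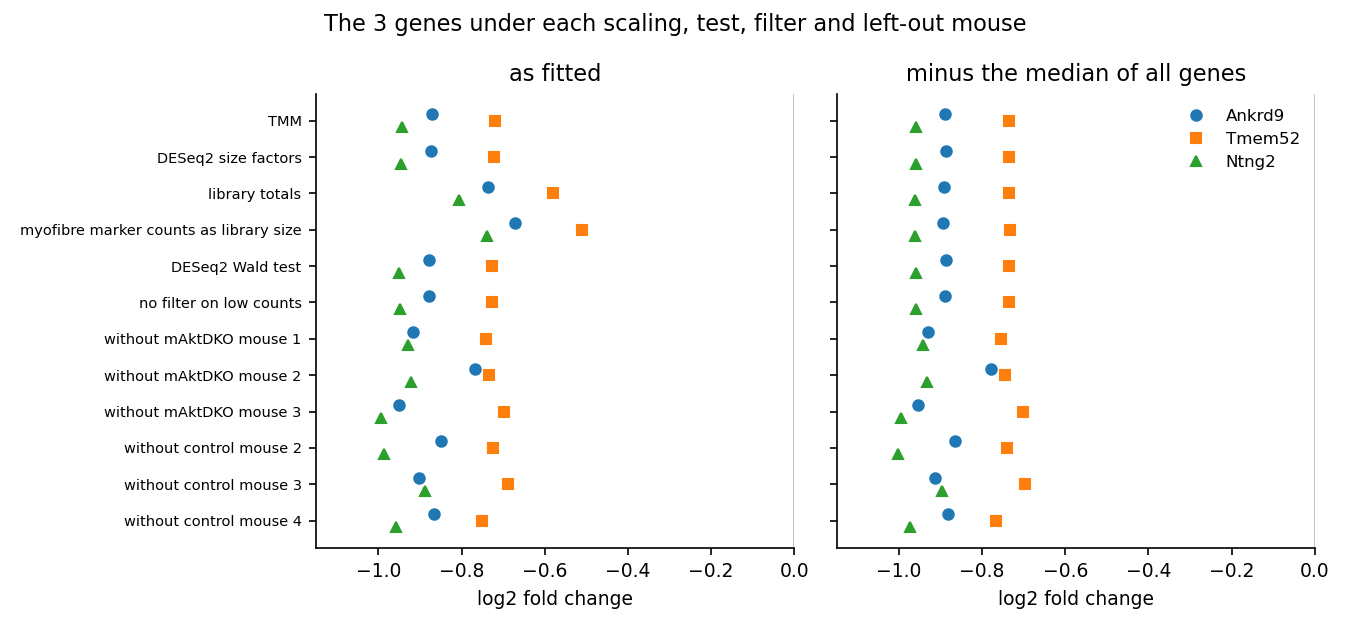
Log2 fold change (mAktDKO minus control) of Ankrd9, Tmem52 and Ntng2 under each scaling, test, filter and left-out mouse, as fitted on the left and after subtraction of the median of all genes on the right. All points lie below 0. The shift towards 0 under library totals and myofibre marker counts on the left, to -0.51 for Tmem52, is removed on the right by the subtraction itself.

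The genes most like each of the 3 in their pattern over the 6 mice were found by the root mean square distance between log2 CPM profiles, each centred on its own mean. Magix (0.065), Guk1 (0.069) and Mylk4 (0.080) were nearest to Ankrd9. Naa38 (0.067), Acvr1b (0.070) and Alas1 (0.076) were nearest to Tmem52, and Nkain1 (0.085), Msrb2 (0.093) and Fam179a (0.12) were nearest to Ntng2. Mylk4 encodes a myosin light chain kinase family member, Acvr1b an activin receptor, Alas1 the rate-limiting enzyme of haem synthesis and Msrb2 a mitochondrial methionine sulfoxide reductase. The levels of these genes range from 4.96 ± 0.73 CPM for Fam179a to 537 ± 43.1 CPM for Mylk4 in the control mice (SD, n = 3 each).

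None of the 3 genes was among the nearest of another. The distance between Ankrd9 and Ntng2 was 0.13, and 16 genes were nearer to Ankrd9 and 4 nearer to Ntng2 than they were to each other. Tmem52 and Ntng2 were also 0.13 apart, and Ankrd9 and Tmem52 were 0.17 apart. The 3 genes were chosen for a lower level in the knockout, which their profiles share. Their nearness to each other therefore follows in part from that choice.

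For the partners of Ankrd9, each gene was tested in the fit across all 12892 genes, in which 3 genes (0.0233%), Akt2, Aldh1a1 and Grb14, passed an adjusted p of 0.01 and 152 (1.18%) passed 0.05 with edgeR's quasi-likelihood test. In DESeq2, 338 of 9781 genes (3.46%) passed 0.01, and 24.5% of the genes had an unadjusted p under 0.05 in edgeR. Of the 11 subunits and neddylation enzymes of the cullin 2 and cullin 5 ligases, 0 passed in either tool, and 2 had an unadjusted p under 0.05. The median log2 fold change was -0.09 with 9 of 11 below 0, beside 0.02 for all genes with 47.5% below 0, and it was 0.04 under library totals and 0.11 under myofibre marker counts. Cul5, the scaffold of the ligase, had 161, 168 and 170 CPM in control and 148, 140 and 160 CPM in mAktDKO mice. The mAktDKO mice lay below the control mice with a narrow gap, and the log2 fold change of -0.16 (SE 0.08, adjusted p = 0.257 from edgeR) turned to 0.04 under myofibre marker counts. Rnf7, the RING subunit that pairs with cullin 5, had a log2 fold change of -0.27 (SE 0.09, adjusted p = 0.122 from edgeR). Arih2, a ligase that acts with cullin 5, had -0.26 (SE 0.09, adjusted p = 0.140 from edgeR), or -0.17 without control mouse 2. Under library totals Rnf7 was at -0.14 and Arih2 at -0.12, and under myofibre marker counts they were at -0.07 and -0.06.

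The substrate of Ankrd9 is encoded by Impdh1 and Impdh2. Impdh2 had 37.5, 29.9 and 30.2 CPM in control and 28.5, 33.2 and 32.2 CPM in mAktDKO mice. The groups overlap, and its log2 fold change of -0.06 (SE 0.11, adjusted p = 0.780 from edgeR) was above 0 under library totals and myofibre marker counts and without control mouse 2. Impdh1 had 12.5, 13.4 and 14.7 CPM in control and 12.6, 10.9 and 12.3 CPM in mAktDKO mice, also with overlap, and a log2 fold change of -0.18 (SE 0.11, adjusted p = 0.351 from edgeR) that was 0.02 under myofibre marker counts. The abundance of the enzyme, on which Ankrd9 is known to act, was not measured in these data.

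Of the 21 genes of guanine nucleotide synthesis and its neighbouring purine steps, 0 passed an adjusted p of 0.01 in edgeR's test, 1 passed 0.05 and 8 had an unadjusted p under 0.05. Guk1, guanylate kinase, which turns GMP into GDP, had 13.1, 12.3 and 12.1 CPM in control and 7.93, 6.35 and 7.75 CPM in mAktDKO mice. The groups were well apart, with a log2 fold change of -0.77 (SE 0.13, adjusted p = 0.0396 from edgeR and 0.00302 from DESeq2). In edgeR Guk1 did not pass 0.05 without mAktDKO mouse 1, 2 or 3 (adjusted p = 0.0975, 0.2 and 0.115) or without control mouse 3 (0.0911). Guk1 is also one of the genes nearest to Ankrd9 in pattern, so both statements rest on the same 6 values. Nme1, a nucleoside diphosphate kinase that makes GTP from GDP, had 19.4, 19.3 and 15.0 CPM in control and 13.1, 10.5 and 8.64 CPM in mAktDKO mice. It was lower without overlap, with a log2 fold change of -0.73 (SE 0.17, adjusted p = 0.0602 from edgeR and 0.00570 from DESeq2).

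Adssl1, the muscle adenylosuccinate synthase, was the remaining gene of this list past 0.01 in DESeq2 and is named for that after its values were seen. It had 902, 644 and 655 CPM in control and 509, 455 and 577 CPM in mAktDKO mice. The groups did not overlap, and control mouse 2 stood well above the others. Its log2 fold change was -0.51 (SE 0.15, adjusted p = 0.0913 from edgeR and 0.00800 from DESeq2), and -0.34 without control mouse 2. Guk1 was at -0.73 and Nme1 at -0.67 without that mouse. Adsl, adenylosuccinate lyase, had -0.33 (SE 0.09, adjusted p = 0.0761 from edgeR). The median of the list was -0.13 with 15 of 21 genes below 0, and it was 0.01 under library totals, 0.08 under myofibre marker counts and -0.07 (12 of 21 below 0) without control mouse 2. In the list 8 genes were lower and 3 higher without overlap, beside 31.1% of all genes in either direction.

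The other ankyrin repeat adaptors of cullin 5 ligases are the Asb genes, of which 16 of 18 were tested and Asb9 and Asb17 had a count of 0 in every mouse. None passed an adjusted p of 0.01 in edgeR's test, 6 had an unadjusted p under 0.05 and 1 passed 0.01 in DESeq2. Asb2, a muscle adaptor that marks filamins for degradation, had 602, 429 and 436 CPM in control and 319, 237 and 359 CPM in mAktDKO mice. It was lower without overlap, with control mouse 2 well above the others, and its log2 fold change was -0.68 (SE 0.18, adjusted p = 0.0752 from edgeR and 0.00155 from DESeq2), or -0.51 without that mouse. Asb18 had a log2 fold change of -0.67 (SE 0.17, adjusted p = 0.0700 from edgeR), or -0.55 without control mouse 2, and Asb13 had -0.40 (SE 0.11, adjusted p = 0.0838). The median of the 16 was -0.26 with 13 below 0, and it stayed below 0 at -0.13 under library totals, -0.06 under myofibre marker counts and -0.14 without control mouse 2.

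The stretch-responsive ankyrin repeat proteins that bind titin share the repeat with Ankrd9 but not its place in a ligase. Ankrd1 had a log2 fold change of 0.16 (SE 0.16, adjusted p = 0.545 from edgeR), which was 0.05 without control mouse 2 and 0.37 without control mouse 4. Ankrd2 had -0.53 (SE 0.38, adjusted p = 0.403) and Ankrd23 had 0.02 (SE 0.09, adjusted p = 0.897). The values of Ankrd2 and Ankrd23 changed sign when single mice were left out, Ankrd2 to 0.10 without control mouse 2.

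For netrin-G1, the netrin-G ligand family and the synaptic proteins that bind it, taken as the list around Ntng2, 6 of 8 genes were tested, and 0 passed an adjusted p of 0.01 in edgeR or in DESeq2, while 1 had an unadjusted p under 0.05. Their median log2 fold change was 0.33, and 5 of 6 were above 0, opposite in sign to Ntng2. The median was 0.46 under library totals and 0.53 under myofibre marker counts, with 6 of 6 above 0, and 0.22 without control mouse 2. Lrrc4, which encodes the netrin-G2 ligand NGL-2, had 0.42, 0.95 and 1.13 CPM in control and 0.89, 0.84 and 1.51 CPM in mAktDKO mice. The groups overlap near the depth limit, with a log2 fold change of 0.37 (SE 0.43, adjusted p = 0.623 from edgeR) that was 0.04 without control mouse 2. Lrrc4c, which encodes the netrin-G1 ligand NGL-1, and its relative Lrrc4b, whose product NGL-3 binds LAR-type phosphatases, had at most 15 and 13 counts in a mouse and were not tested.

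Ntng1, the other netrin-G gene, had 1.89, 2.55 and 1.74 CPM in control and 1.84, 2.94 and 2.81 CPM in mAktDKO mice. The groups overlap, with a log2 fold change of 0.29 (SE 0.27, adjusted p = 0.519 from edgeR) that ranged from 0.17 (without mAktDKO mouse 2) to 0.48 (without mAktDKO mouse 1) when each mouse was left out. Ptprd, a receptor phosphatase of the LAR family that binds partners across synapses, had 20.6, 22.4 and 35.1 CPM in control and 32.0, 45.5 and 35.7 CPM in mAktDKO mice. These overlap as well, with a log2 fold change of 0.54 (SE 0.21, adjusted p = 0.156 from edgeR). It was 0.81 (adjusted p = 0.0423) without control mouse 4 and between 0.38 and 0.64 without any other single mouse. Dlg4, which encodes the synaptic scaffold PSD-95, had 0.43 (SE 0.20, adjusted p = 0.217) and 0.23 without control mouse 2, and Ptprf had 0.28 (SE 0.14, adjusted p = 0.241), or 0.13 without mAktDKO mouse 2.

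The secreted netrins and their receptors form a separate group from the netrin-Gs. Of 13 genes 8 were tested, 0 passed an adjusted p of 0.01 in edgeR or in DESeq2, 1 had an unadjusted p under 0.05, and 7 had a log2 fold change above 0 with a median of 0.08, which was 0.22 under library totals and 0.29 under myofibre marker counts. The one below 0 was Unc5a, a netrin receptor that mediates repulsion, with 17.1, 17.4 and 13.8 CPM in control and 11.0, 10.5 and 11.5 CPM in mAktDKO mice. It was lower without overlap, with a log2 fold change of -0.55 (SE 0.12, adjusted p = 0.0573 from edgeR), or -0.51 without control mouse 2. Ntn1, which encodes netrin-1, had 0.20 (SE 0.09, adjusted p = 0.217) and Ntn3 had 0.45 (SE 0.26, adjusted p = 0.311). Leaving out 1 mouse lowered Ntn1 to 0.13 (without mAktDKO mouse 2) and Ntn3 to 0.26 (without mAktDKO mouse 1).

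Tmem52 has 1 named relative in the table, Tmem52b, which had a count of 0 in every mouse, so the comparison with Tmem52 was of a transcript at percentile 94.9 in level per length with one that was not detected at this depth.

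**Figure D4:**
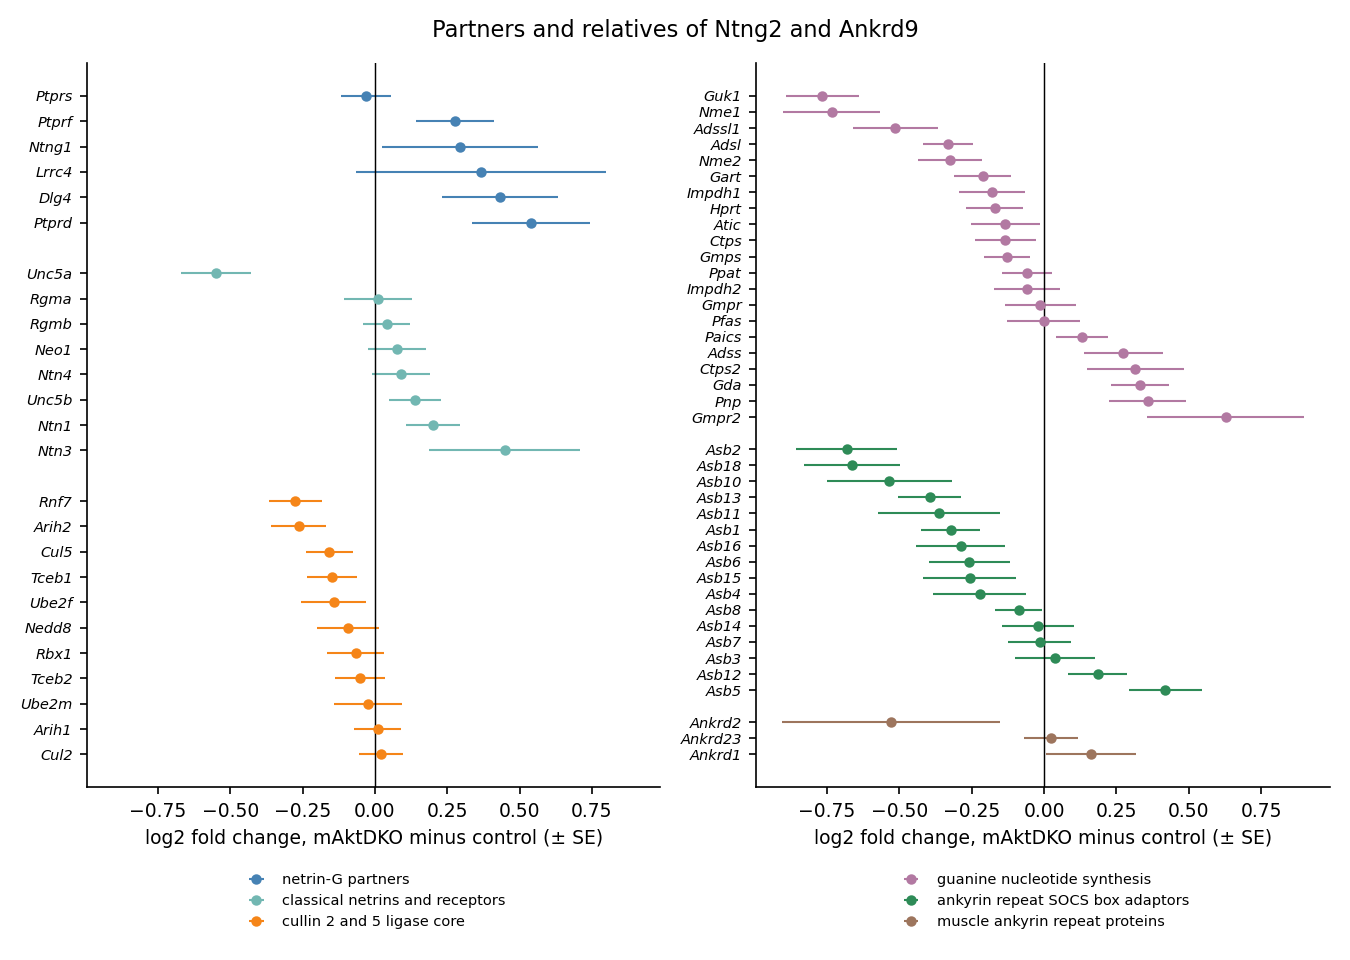
Log2 fold change (mAktDKO minus control) with its standard error for each tested gene of the lists around Ntng2 (netrin-G partners, classical netrins and receptors) and Ankrd9 (cullin ligase core, guanine nucleotide synthesis, ankyrin repeat SOCS box adaptors, muscle ankyrin repeat proteins). Guk1 at -0.77, followed by Nme1 at -0.73, lies lowest in guanine nucleotide synthesis. Asb2 at -0.68 lies lowest among the SOCS box adaptors and Unc5a at -0.55 among the classical netrins and receptors.

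The genes beside each of the 3 were examined to see whether a stretch of chromosome moved with it. Of the 5 genes on either side of each in the RefSeq order, 14 tested genes are reported, and 0 passed an adjusted p of 0.01 in edgeR's test or in DESeq2, while 3 had an unadjusted p under 0.05. Their median log2 fold change was -0.09, and it was 0.05 under library totals and 0.12 under myofibre marker counts. Next to Ankrd9, Tecpr2 at 4.03 kb had -0.18 (SE 0.12, adjusted p = 0.377 from edgeR), which was 0.03 under myofibre marker counts, and Rcor1 at 60.3 kb had 0.05 (SE 0.10, adjusted p = 0.774). The nearest tested genes of Tmem52 lay on the other side of 0, Cfap74 at 2.29 kb with 0.29 (SE 0.32, adjusted p = 0.595), or 0.50 without control mouse 2, and Gnb1 at 20.4 kb with 0.24 (SE 0.10, adjusted p = 0.174).

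Of the reported genes beside Ntng2, 3 of 4 were below 0. The overlapping 6530402F18Rik had 6.96, 10.8 and 10.8 CPM in control and 7.32, 6.31 and 6.21 CPM in mAktDKO mice. These overlap because control mouse 2 lay among the mAktDKO mice, and the log2 fold change was -0.53 (SE 0.18, adjusted p = 0.135 from edgeR), or -0.71 (adjusted p = 0.0443) without that mouse. Rapgef1, an exchange factor for Rap proteins at 372 kb, had the smallest p among the reported neighbours and is named after its values were seen. It had 253 ± 50.6 CPM (SD, n = 3) in control and 189 ± 4.30 CPM (SD, n = 3) in mAktDKO mice, lower without overlap, and a log2 fold change of -0.42 (SE 0.13, adjusted p = 0.106 from edgeR and 0.0242 from DESeq2) that was -0.25 without control mouse 2.

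Since reads were divided between Ntng2 and 6530402F18Rik, their sum was computed as well. It was 19.2, 24.8 and 23.5 CPM in control and 13.9, 12.8 and 13.3 CPM in mAktDKO mice. The groups did not overlap, and the log2 fold change of the sum was -0.75. Ntng2 made up 63.7%, 56.3% and 54.2% of the sum in the control mice and 47.3%, 50.8% and 53.3% in the mAktDKO mice, which are lower by a gap that is narrow beside the spread within each group. How correctly the reads were divided cannot be told from counts per gene.

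**Figure D5:**
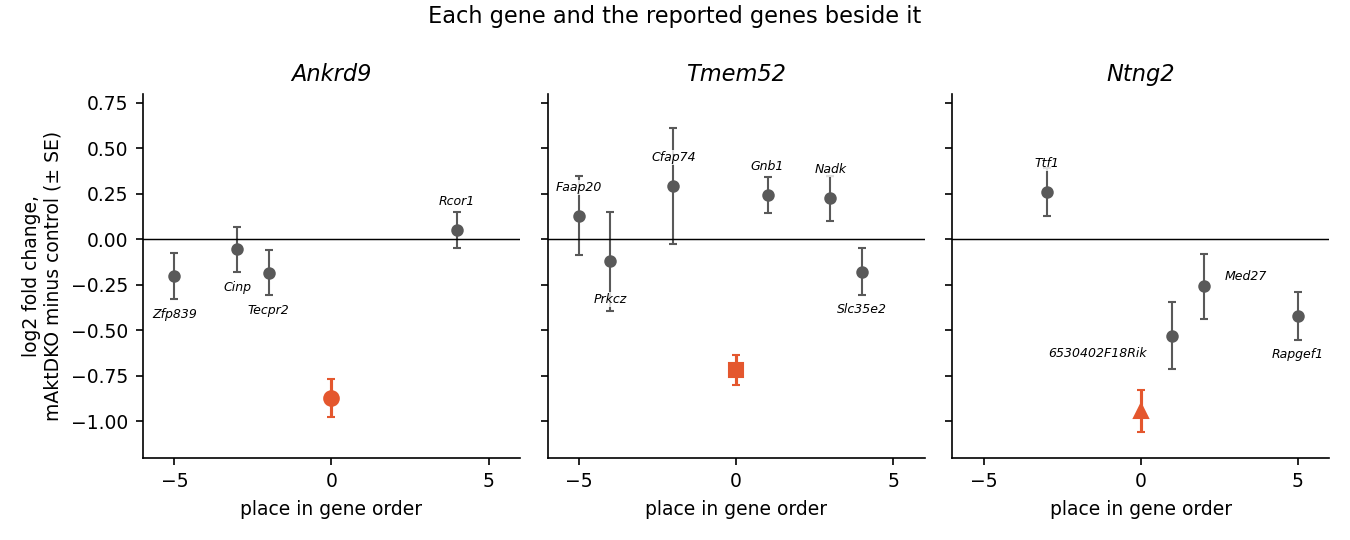
Log2 fold change (mAktDKO minus control) with its standard error for Ankrd9, Tmem52 and Ntng2 (place 0, red) and for the 14 reported genes among the 5 on each side in the RefSeq gene order (grey). The 3 genes lie at -0.87, -0.72 and -0.94, each below these neighbours, of which the overlapping 6530402F18Rik is lowest at -0.53.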

How the data were processed

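RNA of EDL from 3 mAktDKO and 3 control mice was depleted of ribosomal RNA and sequenced strand-specifically as paired 37 bp reads. The authors aligned them to mm10 with STAR (2.6.1b in the submitters' processing notes, another version in the methods) and deposited gene-level expected counts from RSEM 1.3.1, not scaled between mice. The annotation and strand setting of RSEM are not given in the sources used here. From the deposited expected counts, of which 3.36% to 4.09% per mouse were not whole, rounded counts were tested in R 4.3.3 with edgeR 4.0.16 (filterByExpr with a minimum count of 10, TMM, quasi-likelihood test, Benjamini-Hochberg adjusted p under 0.01). The paper's methods state this adjusted p for DESeq2, together with a q value under 0.05. CPM values use unrounded counts, and log2 CPM a prior count of 2. SEs were obtained by dividing a fold change (log2) by the root of its F statistic. Floors of 3 counts cover counting error only. P-values weigh the difference between genotypes against the spread between mice, which both tools estimate with information shared across genes. On counts simulated for the 12892 tested genes with 200 changed 2-fold, edgeR recovered 153 with 0 false calls and DESeq2 recovered 149 with 4.

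The 3 genes, gene lists and tests were chosen with earlier results of these data known, and the motifs after the files were seen. Named in the text are the 3 genes, Akt1, Akt2, Tmem52b, the nearest tested gene on each side, and the 3 genes most like each in pattern. Also named are the known partners Impdh1, Impdh2, Lrrc4, Ntng1 and Cul5. In lists other than the marker lists, the genes past the threshold are named, or otherwise at most the 3 with the smallest p. Marker genes passing DESeq2, Adssl1 and Rapgef1 were named after their values were seen. Acta1, Ckm, Myh4 and Col1a1 were named as parts of marker sums. The result of 1 gene under this rule is not reported here. Alternatives were DESeq2 1.42.0, its size factors, library totals, myofibre marker counts as library size, no filter on low counts, an adjusted p of 0.05, group means of unrounded CPM, leaving out each mouse and, added after seeing the data, the sum of Ntng2 with 6530402F18Rik. Gene positions are from GENCODE M21 and promoter windows from RefSeq, both on GRCm38.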

Additional observations from a re-analysis of the deposited data

How the results depend on the processing

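The log2 fold changes of Ankrd9, Tmem52 and Ntng2 stayed below 0 in all 12, 12 and 13 alternatives tried. Leaving out each mouse gave -0.95 to -0.77 for Ankrd9, -0.75 to -0.69 for Tmem52 and -0.99 to -0.89 for Ntng2. Values that moved by more than the spread between mice were -0.67 (Ankrd9), -0.51 (Tmem52) and -0.74 (Ntng2) with myofibre marker counts as library size, -0.58 (Tmem52) and -0.81 (Ntng2) with library totals, and -0.75 for Ntng2 summed with 6530402F18Rik, an alternative chosen after seeing the data. The count of 3 genes called in the whole table was 338 with DESeq2, 32 with no filter on low counts and 152 at an adjusted p of 0.05, and leaving out each mouse gave 0 to 8, with 0 without any one of the mAktDKO mice and 8 without control mouse 2. Akt2 then had an adjusted p of 0.0188 without mAktDKO mouse 2, within a range of 0.0165 to 0.0208 over the mAktDKO mice left out. The count of 0 in guanine nucleotide synthesis was 3 with DESeq2 (Guk1, Nme1 and Adssl1) and 1 at 0.05 (Guk1), and the count of 0 in the ankyrin repeat SOCS box adaptors was 1 with DESeq2 (Asb2). The cause of these changes was not tested.

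Changes of sign were found only among genes that no test called. With myofibre marker counts as library size, Impdh1 was at 0.022, Impdh2 at 0.15, Cul5 at 0.044 and Tecpr2 at 0.026, and with library totals Impdh2 was at 0.083. These scalings raise the median of all genes by 0.21 and 0.14. When each mouse was left out, Impdh2 ranged from -0.12 to 0.057 (above 0 without mAktDKO mouse 1 or control mouse 2), Ankrd2 from -0.81 to 0.10 (above 0 without control mouse 2) and Ankrd23 from -0.049 to 0.075 (below 0 without mAktDKO mouse 3 or control mouse 4). No paired analysis was possible because the numbers 2 to 4 of the control columns do not match the titles of the control samples (1 to 3), and no number ties a control mouse to an mAktDKO mouse. Depth limits Ntng2 most of the 3 genes, with counts of 103 to 191 per mouse.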
